A study of Homo sapiens with 9 samples.

Results

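The RAS, RAF, MEK and ERK cascade was followed through 32 genes that code for its GTPases, kinases, exchange factors, GTPase activators, scaffolds and downstream kinases, in TC-71, an Ewing sarcoma cell line, and in 3 derived lines that resist blockade of the IGF-1 receptor. The genes were chosen by name. For each one the values came from the probe set that carried its symbol alone and had the highest mean over the 9 arrays. Of the 32 genes, 29 had such a probe set, among 19775 genes with one on the array. NRAS, BRAF and RASA1 had none under this rule and were not analysed here. A gene was tested where at least 2 arrays reached 5 on the log2 scale, a level below which a reading is taken as near background. That kept 26 of the 29 genes, and 14172 genes in all. The near-background readings were those of RASGRP1, RASGRP3 and the single-symbol probe set of NF1. A further 9 probe sets of NF1 were shared with other symbols and were not used.

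Parental TC-71, without such resistance per the labels, was represented by 3 samples with 1 array each. The kinase inhibitor NVP-AEW541, raised to 5 µM, gave TC/AEW. Antibodies against the receptor gave the other two lines, AVE1642 raised to 10 µg/ml for TC/AVE and figitumumab, of which no top concentration is stated in the labels, for TC/CP. Exposure to rising concentrations lasted 6 months, and all cells grew in Iscove medium with 10% serum. Each resistant line is 1 selected population with 2 technical replicate arrays, which were averaged into 1 sample, so p-values reflect the spread among these samples alone, which may be technical. No TC-71 culture carried for the same time is named in the labels, so resistance and time in culture cannot be told apart. By the years in the array names there were 3 array sets. TC-71 sample 1 was alone in its set, sample 2 shared a set with both TC/AEW and TC/AVE, and sample 3 shared one with TC/CP. Where 3 values are given for the lines, their order is TC/AEW, TC/AVE, TC/CP. Comparisons of single lines share the TC-71 samples.

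Receptor tyrosine kinases such as the IGF-1 receptor act on RAS through adaptors and the exchange factors SOS1 and SOS2, which load RAS with GTP. GTP-bound RAS recruits RAF kinases, which phosphorylate the MEK kinases, and these phosphorylate ERK. GTPase activators return RAS to its GDP form. Ewing sarcoma cells depend on the EWS-FLI1 fusion and often on IGF signalling, and this cascade is one of the routes by which that signal reaches the nucleus. RNA levels do not report GTP loading or phosphorylation.

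All array medians lay between 5.39 and 5.45. The 2 arrays of a line correlated between 0.996 and 0.998 over genes, and pairs of TC-71 samples between 0.963 and 0.983. All 9 measured Ewing sarcoma markers reached 5 on every array. Of them LIPI lay below all TC-71 arrays in every line (-1.19, -1.78 and -1.68), as did NPY1R (-0.42, -0.44 and -0.43), and CD99 lay above them (0.12, 0.17 and 0.11). Of 5 blood markers 1 reached 5 on every array in each group, as did 1 of 4 epithelial, 1 or 2 of 4 endothelial and 2 of 4 muscle markers. The summed level of 4 fibroblast markers was between 22.3 and 27.4 in TC-71, between 30.17 and 30.19 in TC/AEW, 22.7 on both arrays of TC/AVE and between 24.4 and 24.5 in TC/CP. In TC/AEW all 4 were higher without overlap with TC-71, by 0.23 to 3.14, beside 15.4% of all genes. In the other lines the sum hides opposite differences, with COL3A1 at -2.05 and DCN at 1.02 in TC/AVE and DCN at -0.83 in TC/CP. Each of these was without overlap with TC-71. The part of the Ewing sarcoma and fibroblast markers in the values of the 3 lines below was not tested. In RNA from a whole culture, fewer cells of a type and less RNA per cell cannot be told apart.

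None of the 26 tested cascade genes passed an adjusted p of 0.05 in any of 6 comparisons by limma, with Benjamini-Hochberg adjustment over all 14172 genes. The share of all genes that passed was 0% for each single line against TC-71, 0.0212% (3 genes) in the lines in common against TC-71, and 0% both in TC/AEW against the averaged antibody-selected lines and in TC/AVE against TC/CP. At an unadjusted p under 0.05 there was 1 cascade gene in TC/AEW (MRAS), where 3.52% of all genes lay there. There were 3 in TC/AVE (RRAS, RRAS2 and RASA2) beside 7.23% of all genes, 1 in TC/CP (MAP2K1) beside 4.93%, and 2 in the lines in common (MAP2K1 and RASA2) beside 8.39%. Between lines there was 1 for TC/AVE against TC/CP (RASA3) beside 5.78%, and 0 for TC/AEW against the antibody-selected lines beside 1.81%. Differences below are given with moderated standard errors on the log2 scale and describe these samples. A single-line difference takes its error from the spread of TC-71, on the assumption that the lone line varies alike.

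The median difference of the 26 genes was 0.02 in TC/AEW (15 higher, 11 lower), 0.04 in TC/AVE (15 higher, 11 lower) and -0.01 in TC/CP (13 higher, 13 lower). Over all genes the medians were 0.00, -0.02 and 0.00. The median size of a difference, whatever its sign, was 0.20, 0.12 and 0.22 for the cascade genes and 0.17, 0.20 and 0.19 for all genes. Differences ran from -0.59 (HRAS) to 0.80 (RPS6KA5) in TC/AEW, from -0.55 (RASA3) to 1.12 (RRAS2) in TC/AVE and from -0.54 (MAP2K2) to 0.68 (RASA3) in TC/CP.

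**Figure D1:**
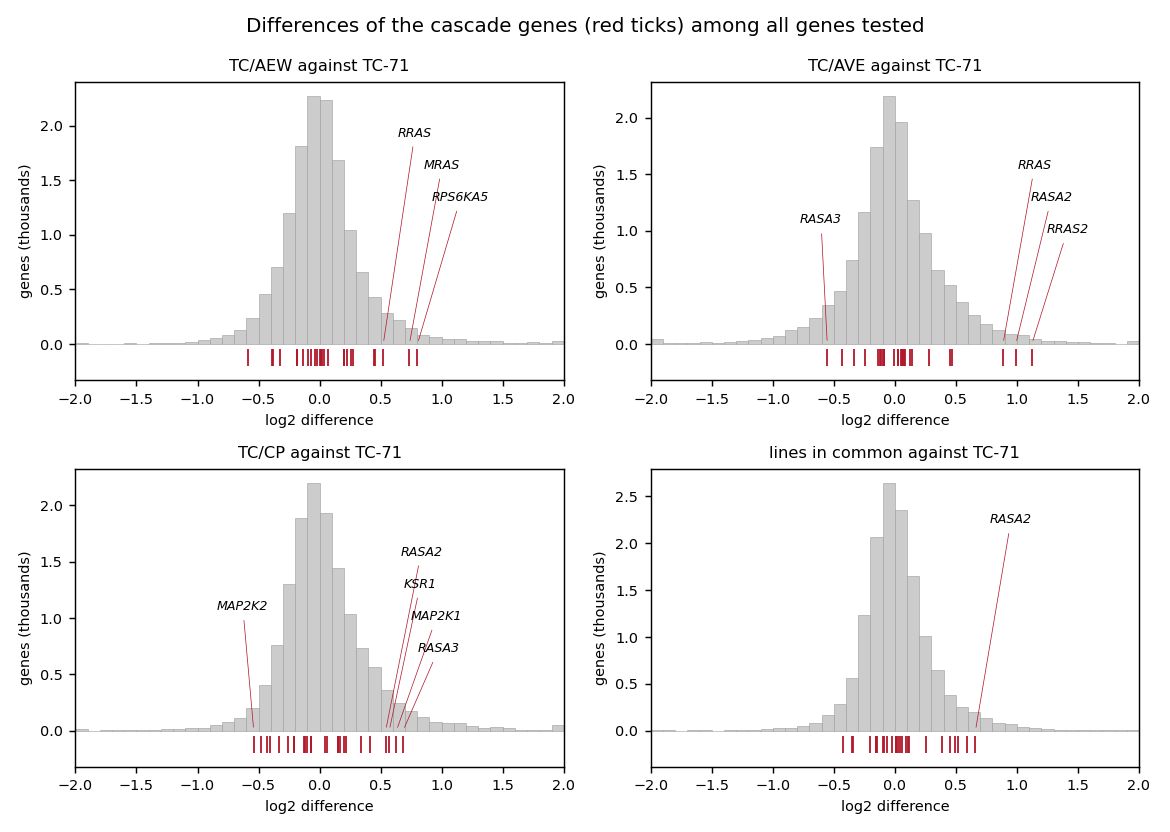
Log2 differences (horizontal axis) of all 14172 genes tested, as grey histograms (vertical axis, number of genes), with the 26 cascade genes as red ticks below, for each line and for the lines in common against TC-71; genes beyond the ends of the axis are in the end bars. The cascade genes lie between -0.59 and 1.12, with RRAS2 in TC/AVE the farthest from 0.

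With so few arrays, a line without overlap with TC-71 (every array of the line beyond all 3 TC-71 arrays) was common. In TC/AEW 9 of the 26 genes were without overlap, beside 29.8% of all genes, with 8 higher (15.4% of all genes) and 1 lower (14.3%). In TC/AVE there were 7, beside 39.4%, with 6 higher (19.6%) and 1 lower (19.8%). In TC/CP there were 12, beside 38.2%, with 6 higher (21.2%) and 6 lower (17%). In the lines in common there were 2, beside 9.53%, both higher (5.2%) and 0 lower (4.33%).

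A difference of at least 0.5 was then asked for as well. In TC/AEW it held for 3 cascade genes beside 9.87% of all genes, all 3 higher (6.17%) and 0 lower (3.7%). In TC/AVE it held for 4 beside 16.1%, 3 higher (8.35%) and 1 lower (7.71%). In TC/CP it held for 5 beside 12.3%, 4 higher (8.62%) and 1 lower (3.68%). In the lines in common it held for 1 beside 4.52%, higher (2.93%), with 0 lower (1.59%). These came to 9 genes, RRAS, RRAS2, MRAS, MAP2K1, MAP2K2, RASA2, RASA3, KSR1 and RPS6KA5, which are given array by array below. The members just inside this limit were RRAS in TC/AEW at 0.52, MAP2K2 in TC/CP at -0.54 and RASA2 in TC/CP at 0.54. Just outside it, without overlap, were MAP2K1 in TC/AVE at 0.46, RRAS2 in TC/AEW at 0.46 and RASA2 in TC/AEW at 0.45.

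**Figure D2:**
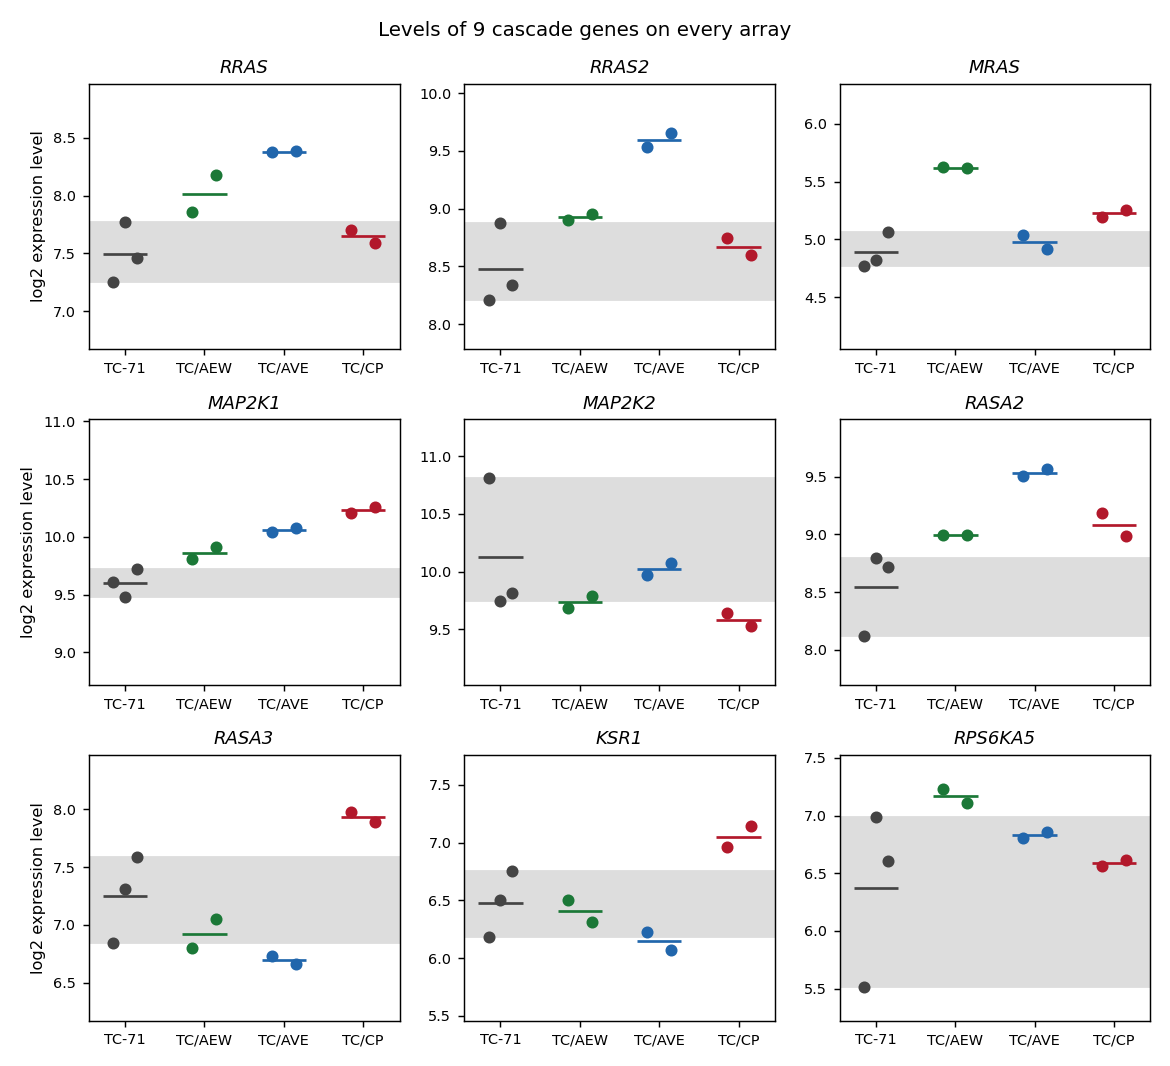
Log2 expression level (vertical axis, the same span of 2.3 in each panel) of the 9 genes on every array, with points for arrays, bars for group means and grey bands for the range of the 3 TC-71 samples. Every array of the 3 lines lies above the band for MAP2K1 and RASA2, and RASA3 lies below it in TC/AVE and above it in TC/CP.

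Among the RAS GTPases, RRAS and RRAS2 were highest in TC/AVE, MRAS was highest in TC/AEW, and HRAS was lower than the TC-71 mean in all 3 lines. RRAS codes for R-Ras, a relative of the classical RAS proteins known for its effect on integrin-mediated adhesion. It read 7.25, 7.78 and 7.46 in TC-71 samples 1, 2 and 3. It read 7.86 and 8.18 in TC/AEW, 8.38 on both arrays of TC/AVE, and 7.71 and 7.59 in TC/CP. TC/AEW and TC/AVE thus lay above every TC-71 array, and TC/CP overlapped with them. The difference was 0.89 ± 0.28 in TC/AVE (1.85-fold, adjusted p = 0.602 by limma), 0.52 ± 0.28 in TC/AEW (1.44-fold, adjusted p = 0.9997) and 0.15 ± 0.28 in TC/CP (adjusted p = 0.998). Against the TC-71 sample of the same array set it was smaller, at 0.61 in TC/AVE and 0.24 in TC/AEW, and TC-71 sample 2 had the highest of the TC-71 readings.

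RRAS2 codes for TC21, which can drive the RAF and PI3K routes much as the classical RAS proteins do. It read 8.21, 8.88 and 8.34 in TC-71 samples 1, 2 and 3. The line arrays read 8.90 and 8.96 in TC/AEW, 9.54 and 9.66 in TC/AVE, and 8.75 and 8.60 in TC/CP. TC/AVE stood clear of all other arrays, TC/AEW lay just above TC-71 sample 2 and TC/CP lay within the TC-71 range. The difference of 1.12 ± 0.33 in TC/AVE was 2.18-fold (adjusted p = 0.583 by limma). Its other 2 probe sets gave 1.16 and 1.24 in TC/AVE. Within the array set the difference was 0.72 in TC/AVE and 0.05 in TC/AEW, against 0.46 over all TC-71 samples in the latter.

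MRAS codes for M-Ras, which with SHOC2 and the phosphatase PP1 removes an inhibitory phosphate from RAF. It read 4.77, 4.82 and 5.07 in TC-71, at the border of background, and 5.63 and 5.62 in TC/AEW. TC/CP read 5.19 and 5.26, and TC/AVE read 5.04 and 4.91. TC/AEW lay above every array of the other groups, TC/CP lay above TC-71 by 0.34 ± 0.23, and TC/AVE overlapped with TC-71. The difference in TC/AEW was 0.74 ± 0.23 (adjusted p = 0.9997 by limma), and it was 0.80 within the array set. TC-71 averaged 4.89, near background, so no fold is given. The other probe set of MRAS read 0.31 higher in TC/AEW, and -0.26 and -0.14 from TC-71 in TC/AVE and TC/CP.

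HRAS read 10.40, 9.31 and 9.83 in TC-71, a range wider than its distance from any line. It read 9.13 and 9.39 in TC/AEW, 9.40 and 9.42 in TC/AVE, and 9.60 and 9.57 in TC/CP, so each line overlapped with TC-71. The differences of -0.59 ± 0.45, -0.43 ± 0.45 and -0.26 ± 0.45 became -0.05, 0.11 and -0.25 within the array sets.

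Among the kinases, MAP2K1 (MEK1) was higher in all 3 lines and its near twin MAP2K2 (MEK2) was not. MEK1 and MEK2 are the kinases that phosphorylate ERK. MAP2K1 read 9.61, 9.47 and 9.72 in TC-71 samples 1, 2 and 3. It read 9.81 and 9.92 in TC/AEW, 10.04 and 10.07 in TC/AVE, and 10.21 and 10.26 in TC/CP. All 6 line arrays lay above all 3 TC-71 arrays, as they did for RASA2 alone among the other cascade genes. The differences were 0.26 ± 0.22 in TC/AEW, 0.46 ± 0.22 in TC/AVE and 0.63 ± 0.22 in TC/CP (1.55-fold in TC/CP, adjusted p = 0.928 by limma). In the lines in common the difference was 0.45 ± 0.15 (1.36-fold, unadjusted p = 0.0181, adjusted p = 0.480 by limma). It was 0.50 with the array set as a block and 0.39, 0.58 and 0.51 within the sets for the lines. The gene had 1 kept probe set.

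MAP2K2 read 10.81, 9.75 and 9.81 in TC-71, with sample 1 standing 1.03 above the mean of the other two. The lines read 9.69 and 9.79 (TC/AEW), 9.97 and 10.08 (TC/AVE) and 9.64 and 9.53 (TC/CP). Only TC/CP lay below all 3 TC-71 arrays, by -0.54 ± 0.48 (adjusted p = 0.998 by limma). Without TC-71 sample 1 that difference was -0.20, and within the array set it was -0.23. The other 2 probe sets of MAP2K2 gave -0.15 and -0.72 in TC/CP. In TC/AVE the difference was -0.10 over all TC-71 samples and 0.28 within the array set.

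ARAF, the RAF kinase measured here, stood at 9.36 ± 0.17 (SD, n = 3) in TC-71 and at 9.32, 9.27 and 9.03 in the lines. Both TC/CP arrays, at 9.09 and 8.97, lay below TC-71, while its other probe set read 0.10 higher there. In TC/AEW that other probe set lay below all TC-71 arrays by -0.56, against -0.04 for the probe set used. MAPK3, which codes for ERK1, stood at 8.83 ± 0.13 (SD, n = 3) in TC-71 and at 9.04, 9.11 and 8.70 in the lines. TC/AEW and TC/AVE lay above all TC-71 arrays for MAPK3 by 0.20 ± 0.22 and 0.28 ± 0.22, each close to the error. Its only probe set is of the _x_at type, which is prone to cross-hybridisation.

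The start region of MAP2K1 is shown because its reading was above TC-71 on every array of the lines, and that of KSR1 because it held the one AP-1 motif among the cascade genes. AP-1 is a dimer of FOS and JUN proteins, which ERK signalling induces. The sequences are from RefSeq on GRCh38.p14, 250 bases before a listed transcript start, 5′ to 3′, with capitals marking the AP-1 motif TGANTCA.
MAP2K1, chr15:66386662-66386911, plus strand: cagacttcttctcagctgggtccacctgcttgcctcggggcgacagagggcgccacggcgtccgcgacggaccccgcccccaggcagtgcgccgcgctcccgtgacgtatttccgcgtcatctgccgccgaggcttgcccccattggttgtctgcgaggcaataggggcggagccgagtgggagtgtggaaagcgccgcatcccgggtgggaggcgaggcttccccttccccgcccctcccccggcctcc
KSR1, chr17:27471714-27471963, plus strand: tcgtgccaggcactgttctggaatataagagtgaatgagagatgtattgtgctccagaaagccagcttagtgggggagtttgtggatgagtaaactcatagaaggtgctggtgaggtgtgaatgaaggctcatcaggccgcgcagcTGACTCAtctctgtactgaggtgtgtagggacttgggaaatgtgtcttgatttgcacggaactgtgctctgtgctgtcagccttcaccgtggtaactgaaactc
Both genes have further listed transcript starts. On either strand TGANTCA occurred in 6.57% of 35116 such windows of all genes and in 1 of 39 windows of the tested cascade genes. These windows cover 21 of the 26 genes and hold none of RRAS, RASA2, RASGRF1, RASAL1 and PTPN11. The FLI1-type repeat GGAAGGAA occurred in 3.06% of all windows and the ETS motif CCGGAAGT in 3.42%, and each in 0 of the 39. The CRE motif TGACGTCA occurred in 1.65% of all windows and 0 of the 39, and the E-box CACGTG in 6.34% and in 2 of the 39 (MAPK3 and RASGRF2). A match describes the letters only, and its absence says nothing about binding of a factor.

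The exchange factors, which load RAS with GTP, stood between -0.19 and 0.14 of the mean of the TC-71 samples in TC/AEW and TC/AVE, on the probe sets used. SOS1 read 8.43, 8.47 and 8.46 in TC-71, the narrowest spread among cascade genes with distinct readings, and 8.41 and 8.50 in TC/AEW. It read 8.59 on both arrays of TC/AVE and 8.21 and 7.88 in TC/CP. TC/CP lay below TC-71 by -0.41 ± 0.20 (adjusted p = 0.998 by limma), but the other 3 kept probe sets of SOS1 read 0.03 to 0.37 higher in TC/CP, so the probe sets disagreed in sign. SOS2 stood at 7.16 ± 0.47 (SD, n = 3) in TC-71 and at 6.97, 7.21 and 6.68 in the lines. In TC/CP all 5 kept probe sets of SOS2 were lower than TC-71, by -0.11 to -0.77, although the arrays of the probe set used, 6.68 and 6.67, overlapped with TC-71 sample 1 at 6.67. Within the array sets SOS2 differed by -0.64, -0.39 and -0.53 in the lines, against -0.19, 0.05 and -0.48 over all TC-71 samples, so its sign turned in TC/AVE. With the array set as a block its difference in the lines in common was -0.52 (adjusted p = 0.366 by limma), against -0.21 without the block.

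RASGRP2, RASGRF1 and RASGRF2, exchange factors known mainly from blood cells and neurons, read between 4.93 and 6.24 over all arrays. On the probe sets used their differences lay between -0.21 and 0.08 in the 3 lines and none was without overlap. Other kept probe sets of RASGRF1 lay below all TC-71 arrays, by -0.53 in TC/AVE for one and by -0.19 in TC/CP for another. The means of these probe sets were near background, at 4.79 in TC-71 and 4.26 in TC/AVE, and at 4.98 in TC-71 and 4.79 in TC/CP. RASGRP1 (2.93 to 3.19) and RASGRP3 (3.39 to 3.83) were near background on all 9 arrays.

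Among the GTPase activators, RASA2 was higher in all 3 lines and RASA3 was lower in TC/AVE and higher in TC/CP. RASA2 codes for a RAS GTPase activator of the GAP1 family. It read 8.12, 8.79 and 8.72 in TC-71 samples 1, 2 and 3, and 8.99 on both arrays of TC/AEW. It read 9.50 and 9.57 in TC/AVE and 9.19 and 8.98 in TC/CP. Every line array lay above every TC-71 array, with TC/AVE the highest. The differences were 0.45 ± 0.33 in TC/AEW, 0.99 ± 0.33 in TC/AVE (1.99-fold, adjusted p = 0.626 by limma) and 0.54 ± 0.33 in TC/CP. In the lines in common the difference was 0.66 ± 0.23 (1.58-fold, unadjusted p = 0.0243, adjusted p = 0.502 by limma). Both other probe sets of RASA2 were higher in every line on average, at 0.56 and 0.74 in the lines in common. Both overlapped with TC-71 in TC/CP, and that at 0.74 overlapped in TC/AEW as well. TC-71 sample 1 stood 0.63 below the mean of the other two, and without it the difference in the lines in common was 0.45 and that in TC/CP was 0.33. Within the array sets the differences were 0.20, 0.74 and 0.37 in the lines.

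RASA3 codes for a relative of RASA2 that binds phosphoinositides at the membrane and also acts on RAP1. It read 6.84, 7.31 and 7.59 in TC-71, 6.79 and 7.05 in TC/AEW, 6.73 and 6.66 in TC/AVE, and 7.97 and 7.89 in TC/CP. TC/AVE lay below all TC-71 arrays by -0.55 ± 0.34 (adjusted p = 0.850 by limma), TC/AEW differed by -0.32 ± 0.34 with overlap, and TC/CP lay above all of them by 0.68 ± 0.34 (adjusted p = 0.998). The antibody-selected lines differed from each other by -1.24 ± 0.42 (TC/AVE minus TC/CP, 2.36-fold, unadjusted p = 0.0315, adjusted p = 0.790 by limma). The other kept probe set of RASA3 read 0.05 from TC-71 in TC/AVE and 0.20 in TC/CP, which is a smaller gap between these lines in the same direction. Within the array sets the differences were -0.62 in TC/AVE and 0.34 in TC/CP.

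RASAL1 and RASAL2, further RAS GTPase activators, read 5.91 to 6.12 and 5.89 to 6.10 on the TC-71 arrays. RASAL1 was below all TC-71 arrays in TC/CP by -0.21 ± 0.22. RASAL2 differed by 0.28 ± 0.22 in TC/AEW with overlap, and another of its probe sets lay above all TC-71 arrays in every line, by 0.63, 0.17 and 0.44. The single-symbol probe set of NF1, the neurofibromin gene, read between 3.49 and 3.80 on all arrays.

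**Figure D3:**
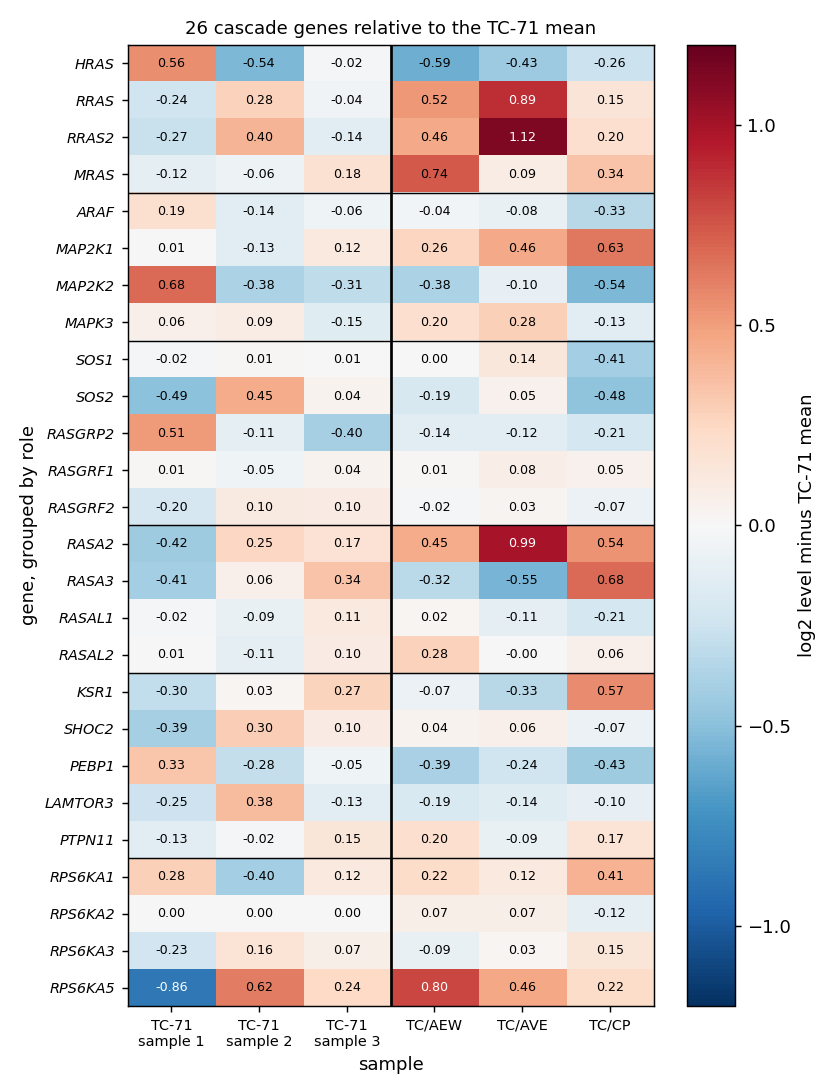
Log2 level of the 26 tested genes (rows, in blocks by role) minus the TC-71 mean of the gene, for each TC-71 sample and for the mean of the 2 arrays of each line (columns), with red above and blue below the TC-71 mean. RPS6KA5, MAP2K2 and HRAS vary as much among the TC-71 samples as between them and the lines, and RRAS2 and RASA2 are reddest in TC/AVE.

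Among scaffolds and regulators, KSR1 stood out in TC/CP on 1 of its 4 probe sets. KSR1 codes for a scaffold that holds RAF, MEK and ERK together. It read 6.18, 6.51 and 6.75 in TC-71, 6.51 and 6.31 in TC/AEW, 6.22 and 6.07 in TC/AVE, and 6.96 and 7.14 in TC/CP. TC/CP lay above every other array, by 0.57 ± 0.29 against TC-71 (1.48-fold, adjusted p = 0.998 by limma) and 0.30 within the array set. TC/AVE and TC/CP differed by -0.90 ± 0.35 (TC/AVE minus TC/CP, adjusted p = 0.872 by limma). The other 3 probe sets of KSR1 gave -0.36, -0.10 and 0.12 in TC/CP, and the mean of all 4 gave 0.06, so the higher reading rests on the probe set with the highest mean. In TC/AVE the same 3 gave -0.15, 0.07 and 0.17. Each was higher there than in TC/CP, opposite in sign to the gap between these lines on the probe set used.

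PEBP1 codes for the RAF kinase inhibitor protein, which binds RAF and keeps it from MEK. It read 12.27, 11.65 and 11.89 in TC-71 and 11.51 and 11.58 in TC/AEW. It read 11.75 and 11.64 in TC/AVE and 11.52 and 11.49 in TC/CP. TC/AEW and TC/CP lay below all TC-71 arrays by -0.39 ± 0.30 and -0.43 ± 0.30 (adjusted p = 0.9997 and 0.998 by limma), and by -0.11 and -0.38 within the array sets. All 3 probe sets of PEBP1 were lower than the TC-71 mean in every line, from -0.43 to -0.65 in TC/CP and from -0.01 to -0.29 in TC/AVE. Within the array set the probe set used differed by 0.04 in TC/AVE, so its sign turned there.

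SHOC2, a scaffold that joins M-Ras to PP1, stood at 9.70 ± 0.36 (SD, n = 3) in TC-71 and between 9.63 and 9.75 in the lines. LAMTOR3, the MEK partner on late endosomes, stood at 9.52 ± 0.33 (SD, n = 3) and between 9.33 and 9.42 in the lines. Within the array sets LAMTOR3 differed by -0.56, -0.52 and 0.03, against -0.19, -0.14 and -0.10 over all TC-71 samples. Its values in TC/AEW and TC/AVE share TC-71 sample 2, which stood 0.57 above the mean of the other TC-71 samples. SHOC2 differed within the array sets by -0.26, -0.24 and -0.17, against 0.04, 0.06 and -0.07 over all TC-71 samples. PTPN11 codes for SHP2, a phosphatase that acts between receptors and RAS. It stood at 10.72 ± 0.14 (SD, n = 3) in TC-71 and at 10.92, 10.63 and 10.89 in the lines, with TC/AEW above all TC-71 arrays by 0.20 ± 0.23. Its 5 kept probe sets were all higher in TC/AEW and 4 of the 5 were lower in TC/CP.

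RPS6KA1, RPS6KA2 and RPS6KA3 code for the RSK kinases, which ERK phosphorylates, and RPS6KA5 codes for MSK1, a nuclear kinase downstream of ERK and p38. RPS6KA5 read 5.51, 6.99 and 6.61 in TC-71, the widest spread of any cascade gene (SD 0.77). It read 7.23 and 7.11 in TC/AEW, 6.81 and 6.86 in TC/AVE and 6.56 and 6.61 in TC/CP. TC/AEW lay above all TC-71 arrays, and TC/AVE and TC/CP lay within their range. The difference in TC/AEW was 0.80 ± 0.59 (1.74-fold, adjusted p = 0.9997 by limma), 0.37 without TC-71 sample 1 and 0.19 within the array set. The other kept probe set gave 0.88 in TC/AEW.

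RPS6KA1 stood at 6.93 ± 0.36 (SD, n = 3) in TC-71 and at 7.15, 7.05 and 7.35 in the lines, with TC/CP above all TC-71 arrays by 0.41 ± 0.33. Within the array sets its differences were 0.63, 0.53 and 0.29. Those of TC/AEW and TC/AVE share TC-71 sample 2, which stood 0.61 below the mean of the other TC-71 samples. RPS6KA3 stood at 8.61 ± 0.21 (SD, n = 3) and at 8.52, 8.64 and 8.76. RPS6KA2 had the same reading of 6.05 in all 3 TC-71 samples and 6.12, 6.12 and 5.93 in the lines, so its TC-71 spread gives no measure of error. The other kept probe set of RPS6KA2, with TC-71 readings from 5.73 to 5.98, lay below all TC-71 arrays in every line, by -0.23, -0.40 and -0.34, opposite in sign to the probe set used in TC/AEW and TC/AVE. RASGRP3, near background, likewise had the same reading of 3.61 in all 3 TC-71 samples.

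The TC-71 samples themselves set much of what could be resolved. The TC-71 SD of the 26 genes had a median of 0.27, against 0.22 over all genes tested. Sample 1 lay farthest from the mean of the other two in 14 of 25 cascade genes with distinct readings (56%), against 45.1% of all genes. It was high for MAP2K2, HRAS, RASGRP2 and PEBP1 and low for RPS6KA5, SOS2, RASA2 and RASA3. Without an array of a resistant line in its set, sample 1 enters the differences over all TC-71 samples and not those within sets. Within the sets the sign differed for 3, 10 and 5 of the 26 genes in the lines. Of these, 0, 4 and 1 also moved by at least 0.3. No such count was taken over all genes.

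**Figure D4:**
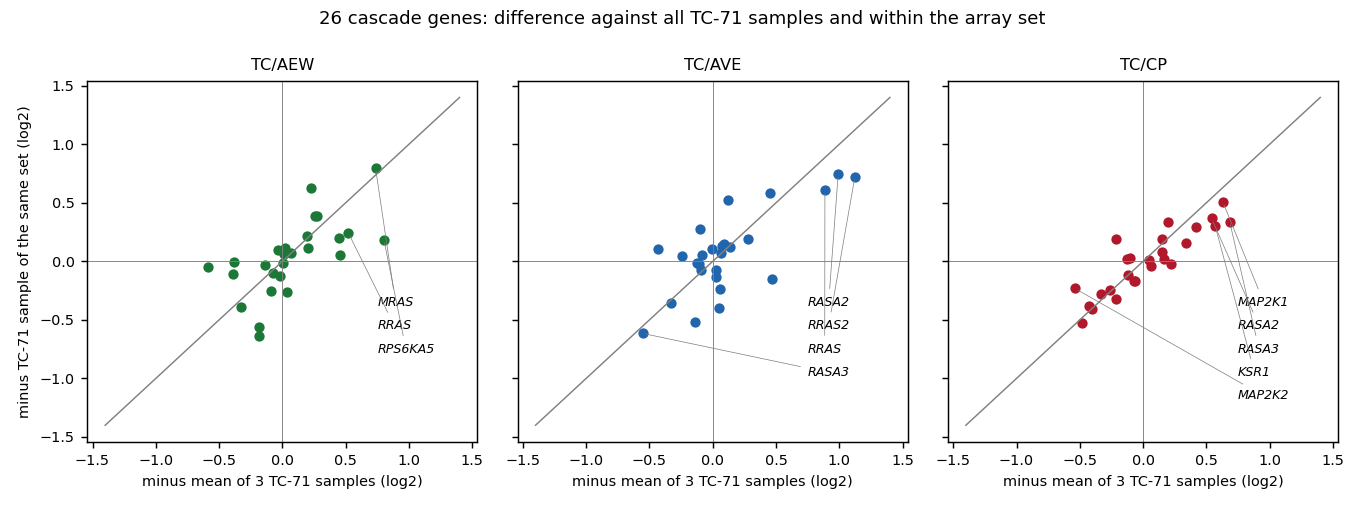
For the 26 genes, the line minus the TC-71 sample of its own array set (vertical axis, log2) against the line minus the mean of all 3 TC-71 samples (horizontal axis, log2), with 1 panel per line and the diagonal for equal values. MRAS stays at 0.74 and 0.80 in TC/AEW, RPS6KA5 moves from 0.80 to 0.19 in TC/AEW, and RRAS2 from 1.12 to 0.72 in TC/AVE.

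**Figure D5:**
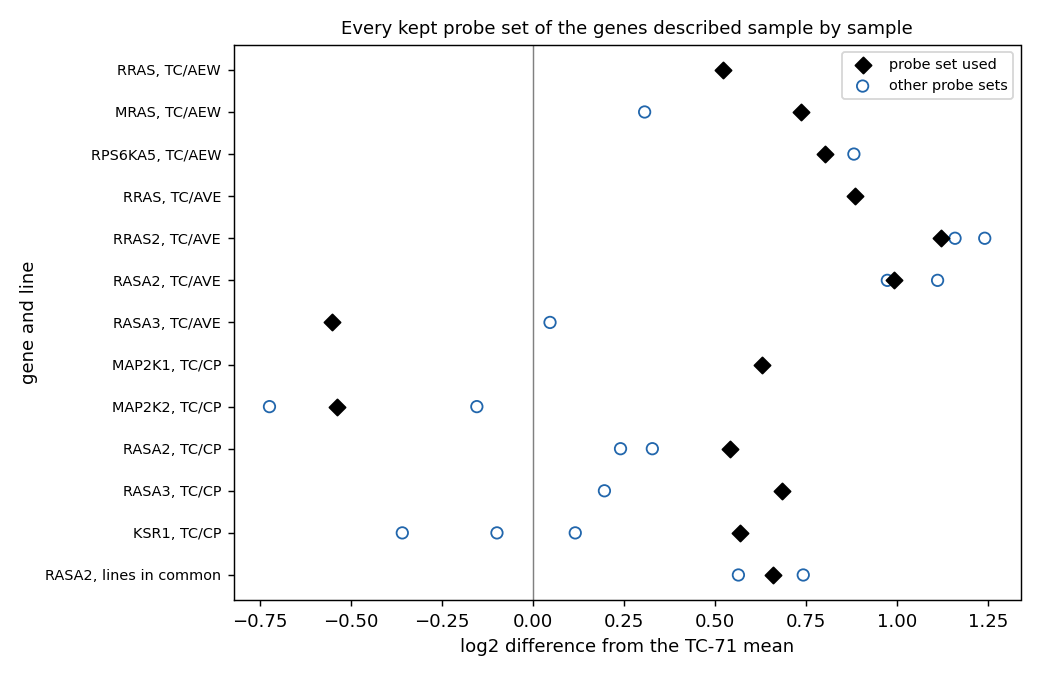
Log2 difference from the TC-71 mean (horizontal axis) for every kept probe set of the genes given array by array, with diamonds for the probe set used and circles for the others. The probe sets of RRAS2 and RASA2 lie together in TC/AVE, while those of KSR1 in TC/CP lie on both sides of 0.

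In TC/AVE against TC/CP, on the probe sets used, RASA3 (-1.24 ± 0.42) and KSR1 (-0.90 ± 0.35) were lower in TC/AVE. RRAS2 (0.92 ± 0.40), RRAS (0.73 ± 0.34), SOS1 (0.55 ± 0.25) and SOS2 (0.54 ± 0.49) were higher there. TC/CP was in another array set than TC/AVE and TC/AEW, so line and array set cannot be told apart in comparisons with it. Within the array sets TC/AVE and TC/CP differed from TC-71 by -0.62 and 0.34 for RASA3 and -0.36 and 0.30 for KSR1. These values were 0.72 and 0.34 for RRAS2 and 0.61 and 0.19 for RRAS. They were 0.13 and -0.41 for SOS1 and -0.39 and -0.53 for SOS2. TC/AEW was not tested against each antibody-selected line singly. Its means differed from those of TC/CP by -1.01 for RASA3 and -0.64 for KSR1, and from those of TC/AVE by -0.67 for RRAS2 and 0.65 for MRAS (TC/AEW minus the other). The other 3 kept probe sets of KSR1 went the other way, with higher means in TC/AEW and in TC/AVE than in TC/CP. With only 2 technical arrays on each side, 22 of the 26 genes and 71.4% of all genes were without overlap in TC/AVE against TC/CP. Of the 22, 14 were higher in TC/AVE (33.8% of all genes) and 8 lower (37.6%). With a difference of at least 0.5 in TC/AVE against TC/CP there were the 6 genes first named, beside 19.7% of all genes, 4 higher (7.57%) and 2 lower (12.1%). TC/AEW differed from the mean of the antibody-selected lines most in MRAS (0.52 ± 0.25, adjusted p = 0.9999 by limma), and 5 of the 26 genes were without overlap beside 26% of all genes, 2 higher (12.5%) and 3 lower (13.5%). MRAS was the 1 gene with a difference of at least 0.5 there, beside 5.6% of all genes (3.28% higher, 2.31% lower).

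Other genes of the pathway were read from a list of 50 adaptors, prenylation enzymes, chaperones and ERK substrates, of which 37 were tested. None passed over all genes by limma in any comparison. In the lines in common 19 were higher (51.4%, beside 48.9% of all genes) and 18 lower, with a median of 0.02. At an unadjusted p under 0.05 there were 2 (5.41%), beside 8.39% of all genes. MKNK2, which codes for a kinase of the translation factor eIF4E that ERK activates, stood at 10.17 ± 0.12 (SD, n = 3) in TC-71 and at 10.67, 10.84 and 10.37 in the lines. Every line array lay above TC-71, with a difference of 0.46 ± 0.16 in the lines in common (adjusted p = 0.501 by limma). In TC/CP its difference was 0.20 over all TC-71 samples and 0.07 within the array set.

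Genes that ERK signalling is known to induce were read from a list of 21, of which 20 were tested. This list was chosen with earlier results of these data known, so its shares and medians describe these genes and were not tested as a set. The genes also share the same TC-71 samples. None passed by limma in any comparison, and 18 of 20 were higher in the lines in common (90%, beside 48.9% of all genes), with a median of 0.41 against -0.01 over all genes. At an unadjusted p under 0.05 there were 4 of the 20 (20%), beside 8.39% of all genes. Line by line, 15, 15 and 18 of the 20 were higher (75%, 75% and 90%, beside 50.2%, 47.2% and 49.6% of all genes), with medians of 0.35, 0.33 and 0.92. Without TC-71 sample 1 those medians were 0.17, 0.14 and 0.83, and within the array sets 0.18, 0.16 and 0.80. Without overlap with TC-71, 10, 10 and 14 were higher (15.4%, 19.6% and 21.2% of all genes). Lower without overlap were 1, 1 and 0 (14.3%, 19.8% and 17% of all genes), namely DUSP5 in TC/AEW and EPHA2 in TC/AVE. DUSP5 differed by -0.61, 0.39 and 0.63 in the lines, and EPHA2 by -0.08, -1.04 and 1.43. FOSL1, an AP-1 subunit, stood at 5.57 ± 0.14 (SD, n = 3) in TC-71 and at 6.15, 6.13 and 7.96. IER3, an immediate early gene, stood at 7.20 ± 0.44 (SD, n = 3) and at 8.57, 7.82 and 8.64. ETV5, an ETS factor, stood at 8.44 ± 0.97 (SD, n = 3) and at 9.87, 9.93 and 9.60. Their differences in the lines in common were 1.18 ± 0.47, 1.14 ± 0.30 and 1.36 ± 0.44 (adjusted p = 0.578, 0.367 and 0.475 by limma). ETV5 read 7.44, 9.37 and 8.51 in TC-71, and without sample 1 its difference was 0.86. Within the array sets it was 0.50, 0.56 and 1.10 in the lines, against 1.43, 1.49 and 1.16 over all TC-71 samples. For FOSL1 the difference without TC/CP was 0.57. IER3 differed by 0.62 in TC/AVE, by 0.36 there without TC-71 sample 1 and by 0.31 within the array set. The median of the 26 cascade genes in the lines in common was 0.02, and a difference between the lists was not tested.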

How the data were processed

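The authors deposited log2 expression levels per probe set for 9 Affymetrix arrays. The tools affy and RMA are named, without versions, per the submitters' processing notes. RMA normalizes between arrays, so a shift shared by most genes is removed. Of 54613 probe sets left without the 62 controls, 41091 carried 1 symbol, 1801 several and 11721 none, and 41037 of the first were found by gene identifier in RefSeq for GRCh38.p14, with 0 symbols updated. Arrays of a line were averaged. The fits used limma 3.58.1 in R 4.3.3, two-sided. The 4-group fit had 2 residual degrees of freedom and the 2-group fit had 4. The steps were tested on simulated data. The number of arrays limits the precision. Every cascade gene is named, and those with a difference of at least 0.5 and no overlap are given array by array. From the lists of other genes, the 4 with the largest difference without overlap in the lines in common are named. DUSP5 and EPHA2 are named as well, as the ERK-induced genes that lay below all TC-71 arrays in a line. Members and lists were chosen with earlier results of these data known. Alternatives covered the filter, scaling, probe set choice, a trend, arrays as samples, the array set and leaving out samples. Values of ETV5, FOSL1, IER3, MKNK2 and of the ERK-induced list without single samples or lines, and within array sets, were added after seeing the data.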

Additional observations from a re-analysis of the deposited data

Results flagged for a closer look

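RASA3 lay below all TC-71 arrays in TC/AVE and above all of them in TC/CP, on opposite sides of TC-71, and these lines differed by -1.24 (TC/AVE minus TC/CP). The test of that difference gave an adjusted p of 0.790 by limma, and the other kept probe set gave 0.05 and 0.20. SOS1 lay above all TC-71 arrays in TC/AVE and below them in TC/CP, a gap of 0.55 with an adjusted p of 0.919 by limma. For both genes TC/AVE and TC/CP were read in different array sets. The difference of SOS1 in TC/AVE was 0.14 ± 0.20, beside TC-71 readings from 8.43 to 8.47. Its other kept probe sets were 0.08 to 0.20 higher than the TC-71 mean in TC/AVE, each with overlap. In TC/CP they were 0.03 to 0.37 higher than the TC-71 mean, and only that at 0.37 was without overlap.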

How the results depend on the processing

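The count of cascade genes past the threshold stayed at 0 in all 6 comparisons with no filter, with arrays centred or quantile normalized again, with other probe set choices, with an intensity trend and without any 1 TC-71 sample (0 to 0), and in the lines in common also without each line and with the array set as a block. With each of the 9 arrays as a sample of its own, so that technical replicates stand in for biological ones, the counts were 1 (TC/AEW), 4 (TC/AVE) and 1 (TC/CP) against TC-71 and 5 in TC/AVE against TC/CP. With the replicate number as a replicate block on those 9 arrays the counts were 1, 4, 2 and 4. The numbers pair no samples, since in the lines they mark technical replicates, and the deviations of same-numbered arrays correlated between -0.02 and 0.14. Leaving out TC-71 samples in turn moved the median difference of the cascade genes to 0.03 to 0.07 in TC/AEW, 0.02 to 0.07 in TC/AVE, 0.02 to 0.05 in TC/CP (-0.01 with all samples) and 0.00 to 0.06 in the lines in common. None of the 13 differences given array by array changed sign under any alternative run. Over all genes, the 3 called in the lines in common became 0 without any 1 TC-71 sample or line, with no filter or with the array set as a block, 5 with arrays centred, and 6 with an intensity trend or the mean of all probe sets. In TC/AVE against TC-71, 0 became 5 with quantile normalization repeated and 6 with the mean of all probe sets. With 9 arrays as samples the counts over all genes were 545, 1871 and 1013 for the single lines (TC/AEW first, TC/CP last), 238 in the lines in common, 288 for TC/AEW against the antibody-selected lines and 1905 for TC/AVE against TC/CP. With the replicate block they were 352, 1241, 1240, 37, 224 and 1831 in that order.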
